A study of Mus musculus with 40 samples.

Results

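Nobox, Lhx8, Figla, Dazl, Zar1, Ybx2 and Cpeb1 are 7 regulators of the growing and mature oocyte: 3 transcription factors and 4 proteins that bind mRNA. They were followed in mouse embryos of the 1-cell and 2-cell stages. Members were taken by symbol from the probe sets listed with exactly 1 gene, and for each gene the probe set with the highest mean over all arrays was used. They are 7 of 18194 genes with such a probe set, and all 7 were among the 14916 genes that passed the filter on dim probe sets and were tested. Figla passed it from a level close to the median of all probe sets, with 20 of 39 arrays above it.

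Gene expression was measured with Affymetrix arrays on poly(A) RNA of B6D2 embryos, a cross of laboratory mouse strains. The embryos had 3 origins: fertilization, transfer of a somatic nucleus into an oocyte (SCNT), and parthenogenesis (an activated oocyte without sperm, called parthenogenic in the labels). For SCNT the donor was a cumulus cell, one of the follicle cells around the oocyte, of a female B6D2 mouse. Each origin was collected at the 1-cell and at the 2-cell stage. For the fertilized and SCNT origins, further groups were exposed to α-amanitin, which blocks RNA polymerase II. No parthenogenetic embryos had α-amanitin. Each of the 10 groups had 4 arrays, except that untreated 1-cell SCNT embryos had 3 because the values of replicate 2 are empty. KSOM is named in the labels of 1 fertilized sample and MEMα in those of SCNT samples, so medium and origin cannot be told apart. The time and dose of α-amanitin, the way oocytes were activated, and the number of embryos per sample are not given in the sources used here. Whether replicates were separate cultures or animals is not stated, so p-values measure the spread between these samples only.

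Nobox and Lhx8 are homeodomain proteins and Figla is a basic helix-loop-helix protein; all are needed for the formation or growth of follicles, and Figla acts through E-boxes in the promoters of zona pellucida genes. Dazl binds mRNA of germ cells and promotes its translation. Ybx2 is the germ cell Y-box protein that coats stored maternal mRNA. Zar1 binds maternal mRNA and is needed for the step from 1 cell to 2. Cpeb1 binds a U-rich element near the end of maternal mRNAs and sets the length of their poly(A) tails. The oocyte loads the embryo with these transcripts, and the mouse embryo clears much maternal RNA around the 2-cell stage, when its own genome becomes active.

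RefSeq promoter entries (GRCm38.p6) were found for all 7 genes, 8 entries in all because Ybx2 has another start site. The 250 bases before each start were searched on both strands for the E-box CANNTG, for CAGGTG (an E-box, so it also counts as CANNTG), for the homeodomain words TAATTG and TAATTA, for ATTGG, and for TATAAA. Each start is that of a promoter entry, which need not be the outer end of the gene span given further below. By those spans, the windows of Nobox, Figla, Zar1, Cpeb1 and the other Ybx2 start lie inside the gene. That of the first Ybx2 start lies partly inside, and those of Lhx8 and Dazl lie just outside. Genes with and without CAGGTG were thus searched at unlike places. The words were picked with the values of these genes known. CAGGTG is shown because 5 of the 7 genes, or 5 of their 8 windows, held it, against 17.2% of all 32851 promoter windows. That share was not matched for GC content, and enrichment was not tested. In the stretches of 30 bases below, read 5′ to 3′ on the gene's strand, capitals mark CAGGTG or its reverse complement CACCTG.
Nobox, chr6:43309674-43309703, minus strand: cagcccccacccCAGGTGtgcggtgcctcg
Nobox, chr6:43309587-43309616, minus strand: gcagactccacaCACCTGgccaccccacgg
Figla, chr6:86017006-86017035, plus strand: ccacctcgcactCAGGTGcgtcaagtgtgt
Zar1, chr5:72581150-72581179, minus strand: tcatggcaacagCAGGTGgtagggcttttt
Ybx2, chr11:69935650-69935679, plus strand: ggaggtggggctCAGGTGtacttacggagt
Cpeb1, chr7:81454804-81454833, minus strand: gcggggccgacaCAGGTGctcctcgtcagg

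The word began 137 and 50 bases before the start in Nobox, 173 in Figla, 83 in Zar1, 237 in Ybx2 and 63 in Cpeb1. The other Ybx2 start had none.

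Lhx8 and Dazl did not hold CAGGTG, and their whole windows are shown for comparison, with any CANNTG in capitals.
Lhx8, chr3:154330561-154330810, minus strand: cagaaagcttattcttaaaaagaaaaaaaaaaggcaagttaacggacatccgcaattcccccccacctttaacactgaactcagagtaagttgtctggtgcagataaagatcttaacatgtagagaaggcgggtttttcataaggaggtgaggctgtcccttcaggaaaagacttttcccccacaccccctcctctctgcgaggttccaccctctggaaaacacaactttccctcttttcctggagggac
Dazl, chr17:50293621-50293870, minus strand: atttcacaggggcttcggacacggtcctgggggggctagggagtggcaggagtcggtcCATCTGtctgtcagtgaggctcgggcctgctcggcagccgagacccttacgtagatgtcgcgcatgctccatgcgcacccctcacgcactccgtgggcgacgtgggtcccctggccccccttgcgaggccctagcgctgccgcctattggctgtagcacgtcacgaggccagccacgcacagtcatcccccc

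Dazl had CATCTG 192 bases before the start and Lhx8 had no CANNTG, a word found in 66.2% of all windows. TAATTG (7.2% of windows) and TAATTA (4.8%) were in none of the 8 windows. ATTGG, in 33.8% of windows, was in Dazl and at 2 places in Ybx2. TATAAA, in 12.4%, was in Cpeb1. A match is a stretch of letters and not a measured binding site. GC content ran from 46.0% in Lhx8 to 79.2% in the other Ybx2 window.

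Levels are array intensities as deposited, on a linear scale with nearly the same mean on every array, so they are relative to the other RNA on that array. Differences are on the log2 scale of intensity plus 6.9 after quantile normalization, with the standard error (SE) from limma, and "called" means an adjusted p under 0.05 over the 14916 genes. Because the labelled RNA was poly(A) RNA, fewer transcripts and fewer transcripts with a tail cannot be told apart. In these bulk samples the RNA per embryo is not known either. Across genes, arrays of the same group had correlations of 0.9397 to 0.9797. Fertilized 1-cell replicate 1 was far above the other 3 arrays of its group for Nobox and Ybx2, and results that turn on it are given without it too. The 10 oocyte markers were all above the median of all probe sets (33.6 in intensity) in all 5 groups of 1-cell embryos.

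Transcripts of 6 of the 7 genes fell from the 1-cell to the 2-cell stage in fertilized, SCNT and parthenogenetic embryos, and Figla was not called in any of them. In fertilized embryos 1.54% of the 1-cell intensity of Nobox was left at the 2-cell stage, 6.11% of Dazl, 7.31% of Zar1, 9.46% of Lhx8, 11.3% of Cpeb1 and 24.6% of Ybx2. Without fertilized 1-cell replicate 1 (left out after seeing the data) the share was 2.43% for Nobox and 40.7% for Ybx2. All 6 fell less in parthenogenetic than in fertilized embryos, where the call for Ybx2 was lost in 5 refits under other settings or with arrays left out. With α-amanitin the decline was smaller for all 6, and it was replaced by a rise for Ybx2.

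Lower calls made up 34.2% of all genes tested in fertilized embryos, 34.4% in SCNT and 27.4% in parthenogenetic embryos, against 6 of the 7 genes in each. Higher calls made up 25.8%, 26.3% and 21.7%, against 0 of the 7 by limma, also at an unadjusted p under 0.05. The median difference of the 7 was -3.41 in fertilized, -3.08 in SCNT and -1.53 in parthenogenetic embryos. Over all genes tested the medians were -0.13, -0.14 and -0.04. The 7 were not compared with chance, since they were picked as oocyte genes.

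**Figure D1:**
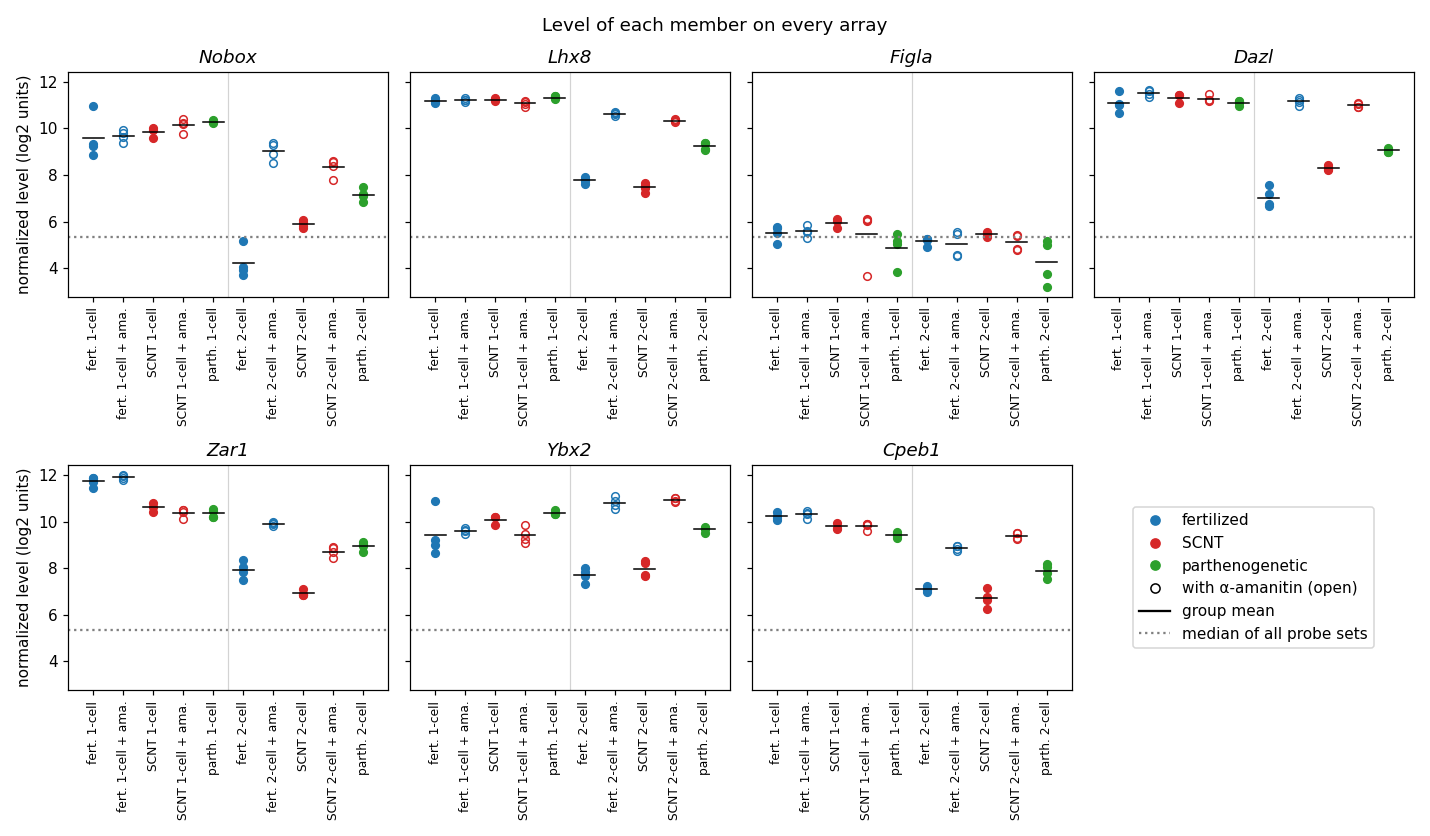
Normalized level (log2 units) of the 7 genes on each of 39 arrays, by group; filled points are untreated and open points α-amanitin embryos, bars are group means, and the dotted line is the median of all probe sets. Nobox, Lhx8, Dazl and Cpeb1 are lowest in the 3 untreated 2-cell groups, Zar1 in untreated fertilized and SCNT 2-cell embryos, Ybx2 is highest in 2-cell embryos with α-amanitin, and Figla stays near the dotted line.

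Nobox (probe set 1425759_at, chr6:43303674-43310072), which activates Gdf9 and other oocyte genes, had the largest loss of the 7. Fertilized 1-cell embryos had intensities of 1941, 618, 474 and 669.6, and fertilized 2-cell embryos 11.5, 8.40, 30.2 and 6.90. Replicate 1 was the high array at the 1-cell stage, and at the 2-cell stage all arrays were below the median of all probe sets. The difference was -5.39 (SE 0.28, adjusted p = 6.5e-20), and -4.94 (adjusted p = 9.84e-21) without that replicate. Since the 2-cell signal was so low, the size depends on the constant added before the logarithm, and it ran from -4.53 with the constant at percentile 40 to -5.90 with it at percentile 5. SCNT embryos went from 779.8, 999.7 and 1038 to 76.6, 57.1, 57.0 and 65.0, and parthenogenetic embryos from 1401, 1285, 1361 and 1297 to 139, 115, 174 and 144. The arrays of the stages did not overlap in either. The differences were -3.95 (SE 0.30) and -3.15 (SE 0.28).

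With α-amanitin, Nobox kept 56.7% of its 1-cell intensity in fertilized embryos and 24.8% in SCNT embryos. The fertilized arrays were at 1049.5, 849.9, 699 and 945 and then at 440.3, 332, 643 and 595, a difference of -0.65 (SE 0.28, adjusted p = 0.0589) that was not called. The SCNT arrays were at 1174, 869.6, 1405 and 1224 and then at 293, 328, 336 and 204, a difference of -1.83 (SE 0.28, adjusted p = 4.42e-07) that was called. The decline with α-amanitin was larger in SCNT embryos, with a difference from fertilized embryos of -1.17 (SE 0.40, adjusted p = 0.0176). Without SCNT 2-cell α-amanitin replicate 4 this was -0.995 (adjusted p = 0.0515). The fertilized difference became a call under 5 other settings: -0.84 (adjusted p = 0.00984) with the deposited values not normalized further, -1.30 (adjusted p = 0.000233) with median centring, and adjusted p values of 0.0365 with the constant at percentile 40, 0.013 with array weights and 0.00747 with only the arrays compared. It also did without any 1 of 5 arrays, at adjusted p values of 0.0138 without fertilized 1-cell replicate 1, 0.0465 without replicate 3 of that group, 0.0443 and 0.0389 without replicate 3 of the 1-cell and the 2-cell fertilized α-amanitin groups, and 0.0356 without fertilized 2-cell replicate 3. Without fertilized 1-cell replicate 1 and SCNT 1-cell α-amanitin replicate 4 together it was 0.0152. From the highest, the group order was parthenogenetic, SCNT with α-amanitin, SCNT, fertilized with α-amanitin and fertilized at the 1-cell stage, then fertilized and SCNT with α-amanitin, parthenogenetic, SCNT and fertilized at the 2-cell stage. Neighbouring groups overlapped down to SCNT with α-amanitin at the 2-cell stage, and the last 3 each stood apart from the group above.

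Lhx8 (probe set 1427300_at, chr3:154306288-154330560), needed with Nobox for the first steps of follicle growth, had the tightest replicates, with a SD of at most 0.19 in any group. All 1-cell arrays lay between 2029 and 2798. Fertilized embryos had 2153, 2567, 2294 and 2135 and fertilized 2-cell embryos 193, 225, 235 and 212. SCNT embryos had 2505, 2396 and 2219 and 195, 208, 159.7 and 219.5 at these stages. No 2-cell array reached a 1-cell array. The differences were -3.41 (SE 0.088, adjusted p = 2.97e-29) and -3.75 (SE 0.095, adjusted p = 2.99e-29). Parthenogenetic embryos went from 2613, 2798, 2772 and 2584 to 536, 641, 641 and 511, which left 21.6% of the 1-cell level.

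With α-amanitin Lhx8 was at 1587, 1628, 1777 and 1731 in fertilized and 1332, 1277, 1140.3 and 1298 in SCNT 2-cell embryos. These arrays lay below all 1-cell arrays and above all untreated 2-cell arrays. The decline from the 1-cell stage was -0.59 (SE 0.088, adjusted p = 8.14e-07) in fertilized and -0.74 (SE 0.088, adjusted p = 2.41e-09) in SCNT embryos, and left 71.1% and 57.9% of the level. From the highest, the order at the 2-cell stage was fertilized with α-amanitin, SCNT with α-amanitin, parthenogenetic, fertilized and SCNT. Each stood apart from the next except fertilized and SCNT, whose arrays overlapped. The 1-cell groups overlapped from each to the next.

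Figla (probe set 1450369_at, chr6:86016494-86020996), the activator of the zona pellucida genes, was dim throughout. Its intensities were 45.5, 23.9, 38.8 and 41.7 in fertilized 1-cell and 35.3, 32.1, 24.3 and 32.5 in fertilized 2-cell embryos. They were 60.9, 53.9 and 41.4 in SCNT 1-cell and 43.6, 49.7, 43.5 and 44.1 in SCNT 2-cell embryos. The intensities of the stages overlapped in both origins and were close to the median of all probe sets, though after normalization the SCNT 2-cell arrays lay below the 1-cell arrays. Parthenogenetic embryos had 5.80, 22.4, 22.9 and 30.7 and then 27.0, 2.90, 35.2 and 8.50, and the stages overlapped there too. The 3 changes between stages were -0.35 (SE 0.40), -0.48 (SE 0.44) and -0.61 (SE 0.40), none called, with 95% confidence intervals from -1.17 to 0.47, -1.36 to 0.40 and -1.42 to 0.21. No change between the stages was called at this level, which is not the same as absent, since the intervals run down to -1.42.

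Its 1 call in the 17 comparisons of 2 groups and 8 differences of differences was a higher level in SCNT than in parthenogenetic 2-cell embryos, 1.19 (SE 0.40, adjusted p = 0.0115). This rested on parthenogenetic 2-cell replicate 2, at an intensity of 2.9, and without it the difference was 0.84 (adjusted p = 0.0877). Across stage and origin, parthenogenetic 2-cell embryos were also called lower (limma) than fertilized (-1.24, adjusted p = 0.00924) and SCNT 1-cell embryos (-1.67, adjusted p = 0.00136), and than both 1-cell groups with α-amanitin. Of all genes, 51% and 48.7% were called either way in the untreated pairs, and 52.4% (fertilized) and 51.4% (SCNT) in those with α-amanitin. These pairs include the same parthenogenetic 2-cell replicate 2 and were not refitted without it. With α-amanitin Figla was at 56.8, 56.6, 56.3 and 5.80 in SCNT 1-cell embryos, where replicate 4 was far under the other 3, and at 38.7, 25.2, 28.7 and 50.2 in SCNT 2-cell embryos. The stage difference with α-amanitin in SCNT was -0.37 (SE 0.40, adjusted p = 0.461), and without that replicate -0.97 (adjusted p = 0.0198). SCNT 1-cell embryos had the highest and parthenogenetic 2-cell embryos the lowest mean, and all but 1 pair of neighbours in that order overlapped (SCNT and fertilized 2-cell embryos were apart). With the deposited values not normalized further, fertilized 1-cell embryos with α-amanitin moved from place 2 to place 7 of the 10.

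Dazl (probe set 1419542_at, chr17:50279393-50293620), which brings poly(A)-binding protein to germ cell mRNAs, fell in untreated embryos of all 3 origins and was mostly still there in 2-cell embryos with α-amanitin. Fertilized embryos went from 2953, 2100.2, 2008 and 1596 at the 1-cell to 104, 96.9, 185 and 142 at the 2-cell stage. With α-amanitin they went from 3199, 2738, 2497 and 3006 to 2697, 2372, 2162 and 2744. The untreated arrays were far apart, and those with α-amanitin overlapped in intensity. After normalization the latter did not overlap, at log2 levels of 11.34 to 11.62 in 1-cell and 10.96 to 11.31 in 2-cell embryos. The differences were -4.04 (SE 0.14, adjusted p = 4.05e-25) and -0.36 (SE 0.14, adjusted p = 0.0406). The latter was lost without replicate 1, 2 or 4 of the fertilized 1-cell α-amanitin group (adjusted p values of 0.102, 0.0567 and 0.102) and without replicate 2 or 3 of the 2-cell group (0.0808 and 0.129), with differences between -0.38 and -0.30. It was also lost with the deposited values not normalized further, at -0.20 (adjusted p = 0.246), and without a trend of the spread with the level (adjusted p = 0.0632).

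SCNT embryos went from 2716, 2172 and 2677 to 356, 341, 306 and 322, -3.01 (SE 0.16, adjusted p = 6.21e-20). With α-amanitin they went from 2362, 2405, 2920.0 and 2362 to 2364, 2033, 1891 and 2214, -0.27 (SE 0.14, adjusted p = 0.111), which was not called although the normalized arrays of the stages did not overlap. Parthenogenetic embryos went from 2149, 2339, 2388 and 2362 to 525, 502, 481 and 544, -2.04 (SE 0.14, adjusted p = 2.43e-15). The 3 untreated 2-cell groups did not overlap, with parthenogenetic highest, SCNT next and fertilized lowest. The other 7 groups overlapped from each to the next, with fertilized 1-cell α-amanitin embryos highest and SCNT 2-cell α-amanitin embryos lowest of the 7.

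Dazl was the only gene of the 7 with another probe set, 1449502_at. The 2 probe sets had similar losses in untreated embryos, with 7.51% left by the other in fertilized, 14.9% in SCNT and 20.7% in parthenogenetic embryos. They differed with α-amanitin in fertilized embryos, where 51.3% was left by the other and 87.2% by the first. The other gave fertilized 2-cell α-amanitin arrays of 1445, 1223, 1501 and 1403, all under its 1-cell α-amanitin arrays of 3086, 2496, 2667 and 2611. Its decline was -1.04 (SE 0.17, adjusted p = 4.38e-06). In SCNT embryos with α-amanitin the other probe set left 99.2%. The difference of these declines between SCNT and fertilized embryos was 0.98 (SE 0.24, adjusted p = 0.00118) with the other and 0.09 (SE 0.20, adjusted p = 0.777) with the first probe set, so the call depends on the probe set.

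**Figure D2:**
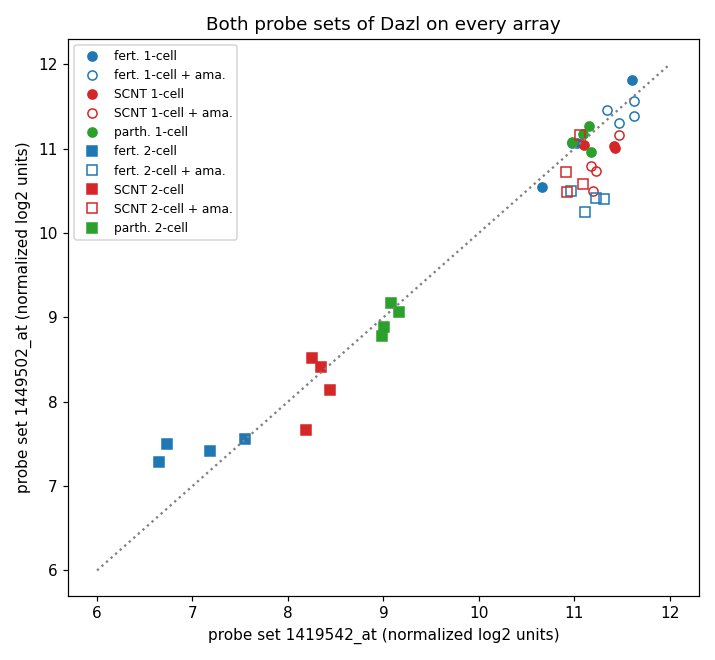
Normalized log2 level of Dazl by its 2 probe sets on each of 39 arrays; circles are 1-cell and squares 2-cell embryos, open points are α-amanitin, and the dotted line marks equal values. The 4 fertilized 2-cell α-amanitin arrays (open blue squares) lie under the line beside the 1-cell arrays, while untreated 2-cell arrays lie at the lower left.

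Ybx2 (probe set 1420762_a_at, chr11:69935805-69941604), the protein that holds maternal mRNA in store, had the smallest loss of the 6 genes and was the only one that rose with α-amanitin. Fertilized 1-cell embryos had 1860.1, 607, 408 and 524, with replicate 1 far above the others, and 2-cell embryos 222, 156, 256 and 202. The arrays did not overlap. The difference was -1.73 (SE 0.24, adjusted p = 6.66e-08), and -1.25 (adjusted p = 2.04e-08) without replicate 1. SCNT embryos went from 922, 1197 and 1186 to 318, 223, 218 and 338, -2.10 (SE 0.26, adjusted p = 4.94e-09). Parthenogenetic embryos went from 1369, 1586, 1402 and 1369 to 867, 796, 686 and 798, -0.71 (SE 0.24, adjusted p = 0.0142). Of the 1-cell level, 55.0% was left in the latter, against 24.6% in fertilized and 24.9% in SCNT embryos. From the mean normalized levels the fertilized share was 30.2%, and from the intensities without replicate 1 it was 40.7%.

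With α-amanitin fertilized embryos went from 834, 858, 765 and 885 to 1851, 1538, 2037 and 2333. SCNT embryos went from 614, 911, 546 and 705 to 1988, 2218, 2018 and 1866. In both, every 2-cell array was above every 1-cell array. The increases were 1.21 (SE 0.24, adjusted p = 9.5e-05) and 1.53 (SE 0.24, adjusted p = 9.82e-07), and the 2-cell intensity was 232% and 292% of that at the 1-cell stage. Higher calls made up 21.5% of all genes tested in the fertilized and 25.6% in the SCNT comparison, and Ybx2 was the 1 higher call among the 7 in each. These are shares of the RNA on an array, so the total RNA bears on them. The highest groups were SCNT and fertilized 2-cell embryos with α-amanitin, which overlapped and stood apart from parthenogenetic 1-cell embryos, the next. Untreated SCNT and fertilized 2-cell embryos were lowest and overlapped.

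Zar1 (probe set 1434494_at, chr5:72577113-72581361), whose loss in the mother stops most embryos at the 1-cell stage, fell under all 5 conditions. Fertilized embryos went from 2597, 3891, 3655 and 3214 to 313, 174, 228 and 261, -3.80 (SE 0.14, adjusted p = 3.53e-25). In SCNT embryos the arrays were at 1577, 1772 and 1355 and then at 155, 129.5, 124 and 124, -3.69 (SE 0.15, adjusted p = 1.59e-23). Parthenogenetic embryos went from 1263, 1259.7, 1486 and 1584 to 503, 409, 471 and 534, -1.40 (SE 0.14, adjusted p = 1.53e-11). The last kept 34.3% of the level, against 7.31% and 8.50% in fertilized and SCNT embryos. With α-amanitin the fall was -2.01 (SE 0.14, adjusted p = 1.56e-15) in fertilized embryos, from 3972, 3245, 3353 and 3709.5 to 879, 956, 939 and 993. In SCNT embryos it was -1.66 (SE 0.14, adjusted p = 7.54e-14), from 1429.9, 1379.8, 1459 and 1132 to 299.5, 357, 412 and 401. The 2-cell level was 26.4% and 27.2% of the 1-cell level. The arrays of the stages did not overlap in any of these comparisons.

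The order of Zar1 set fertilized embryos apart at the 1-cell stage. Fertilized embryos with and without α-amanitin were highest and overlapped. SCNT, SCNT with α-amanitin and parthenogenetic 1-cell embryos came next, overlapping from each to the next and apart from the fertilized groups. At the 2-cell stage the order was fertilized with α-amanitin, parthenogenetic, SCNT with α-amanitin, fertilized and SCNT, where parthenogenetic embryos overlapped with SCNT embryos with α-amanitin and the others stood apart.

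Cpeb1 (probe set 1417960_at, chr7:81347026-81458001), the cytoplasmic polyadenylation factor, also fell under all 5 conditions. Fertilized embryos went from 1071, 1392, 1137 and 1199.7 to 125, 129, 140.4 and 147, -3.12 (SE 0.14, adjusted p = 3.05e-22). In SCNT embryos they were at 827, 1002 and 860.4 and then at 161, 84.8, 117 and 108, -3.08 (SE 0.15, adjusted p = 6.38e-21). Parthenogenetic embryos went from 770.1, 688, 716 and 629.8 to 253, 284, 216 and 189.7, -1.53 (SE 0.14, adjusted p = 1.95e-12). The stages did not overlap in any of the 3 origins. With α-amanitin fertilized embryos went from 1194, 1501, 1373 and 1340.4 to 412, 385, 456 and 461, -1.46 (SE 0.14, adjusted p = 1.71e-11). SCNT embryos went from 939, 775, 997 and 955 to 677, 672, 543 and 550.4, -0.42 (SE 0.14, adjusted p = 0.00891). The share left was 31.7% in fertilized and 66.6% in SCNT embryos, and the declines differed by 1.04 (SE 0.19, adjusted p = 2.59e-05). Cpeb1 was highest in fertilized 1-cell embryos, with and without α-amanitin. Then came both SCNT 1-cell groups, which overlapped with each other, and parthenogenetic 1-cell embryos, which overlapped with SCNT 2-cell α-amanitin embryos. Untreated fertilized and SCNT 2-cell embryos were lowest and overlapped.

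**Figure D3:**
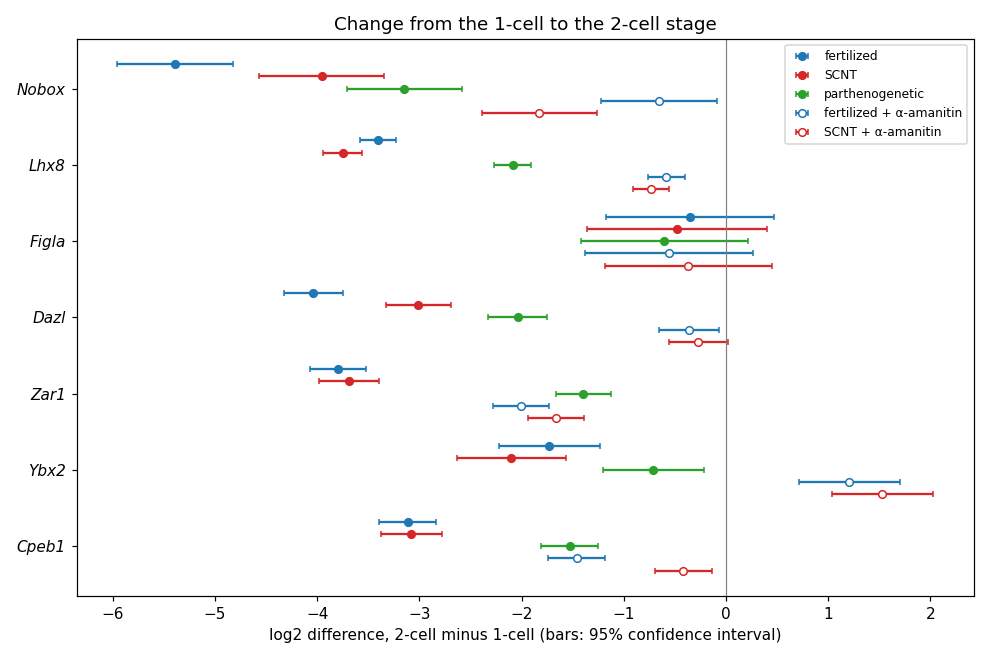
Log2 difference between the 2-cell and the 1-cell stage for each gene, with 95% confidence intervals, in fertilized (blue), SCNT (red) and parthenogenetic (green) embryos and with α-amanitin (open). Filled points of 6 genes lie to the left of 0, green ones nearest to it, open points of Ybx2 lie to the right, and all intervals of Figla cross 0.

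The smaller decline in parthenogenetic than in fertilized embryos was tested as a difference of differences. It was called for 6 of the 7 genes, where 19.8% of all genes tested were called in that direction. The differences were 2.40 (SE 0.19) for Zar1, 2.24 (SE 0.40) for Nobox, 2.00 (SE 0.20) for Dazl, 1.59 (SE 0.19) for Cpeb1, 1.32 (SE 0.13) for Lhx8 and 1.02 (SE 0.35) for Ybx2. The adjusted p values ran from 5.52e-13 for Zar1 to 0.0185 for Ybx2. The Ybx2 call was lost in 5 of the refits under other settings or with arrays left out. Among them were those without fertilized 1-cell replicate 1, at 0.54 (adjusted p = 0.0612), and without fertilized 2-cell replicate 2, at 0.89 (adjusted p = 0.0507). The median over all genes was 0.11 in this comparison. Against parthenogenetic embryos, SCNT embryos had a larger decline of Zar1 (-2.29), Lhx8 (-1.66), Cpeb1 (-1.55), Ybx2 (-1.39) and Dazl (-0.97), 5 of 7 where lower calls made up 22.7% of all genes. For Nobox it was -0.81 (SE 0.41, adjusted p = 0.119), and without fertilized 1-cell replicate 1, which enters only the shared spread, -0.81 (adjusted p = 0.0398).

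SCNT and fertilized embryos differed in the decline of 2 genes, Nobox and Dazl, both of which fell less in SCNT embryos. The difference was 1.44 (SE 0.41, adjusted p = 0.0102) for Nobox and 1.03 (SE 0.21, adjusted p = 0.000361) for Dazl, and 8.62% of all genes were called that way. By the other Dazl probe set it was 0.84 (SE 0.25, adjusted p = 0.0154). The Nobox call was lost with a larger added constant, at 0.88 (adjusted p = 0.085). For Zar1 and Cpeb1 it was 0.11 and 0.04, with 95% confidence intervals of -0.29 to 0.51 and -0.37 to 0.45. For Lhx8 it was -0.34 (SE 0.13, adjusted p = 0.0589). It was called without fertilized 1-cell replicate 2 (-0.39, adjusted p = 0.0389), fertilized 2-cell replicate 1 (-0.39, adjusted p = 0.0326), and SCNT 2-cell replicate 2 or 4 (adjusted p = 0.0482 and 0.0254). With the replicate number as a block it was -0.36 (adjusted p = 0.043). For Ybx2 it was -0.38 (SE 0.36, adjusted p = 0.544), and without fertilized 1-cell replicate 1 -0.86 (adjusted p = 0.00652), which is a larger decline in SCNT embryos.

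**Figure D4:**
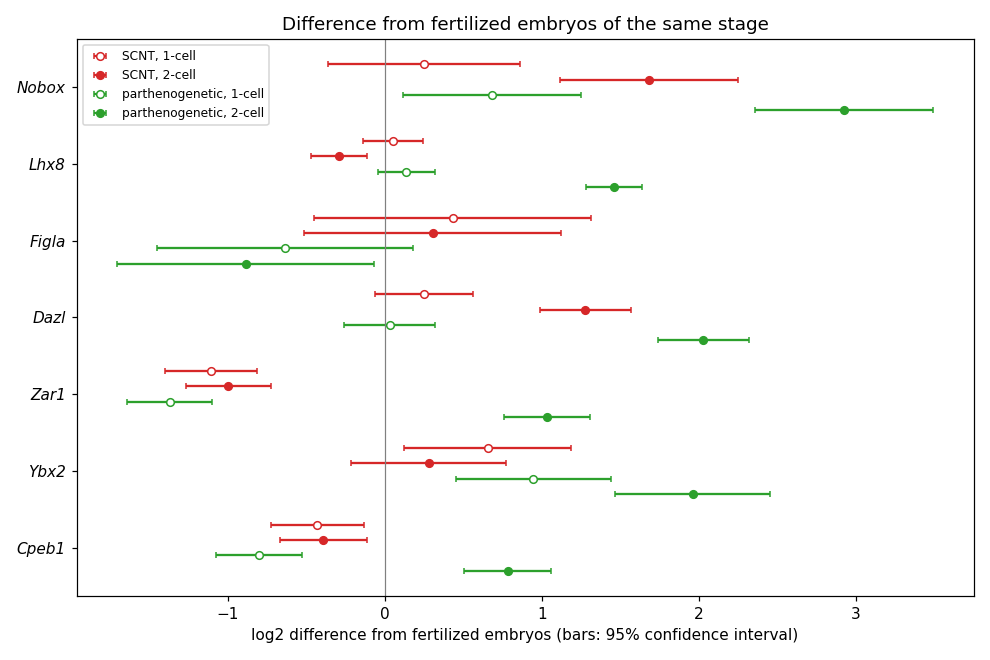
Log2 difference of SCNT (red) and parthenogenetic (green) from fertilized embryos of the same stage, with 95% confidence intervals; open points are 1-cell and filled points 2-cell embryos. At the 1-cell stage Zar1 lies below 0 for both origins, and at the 2-cell stage parthenogenetic points of 6 genes lie above 0.

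At the 1-cell stage the members that differed by origin included Zar1 and Cpeb1, both higher in fertilized embryos. Zar1 was 2.16-fold lower in SCNT than in fertilized embryos, -1.11 (SE 0.15, adjusted p = 2.85e-06), and 2.59-fold lower in parthenogenetic embryos, -1.37 (SE 0.14, adjusted p = 5.86e-10). No SCNT or parthenogenetic array reached the lowest fertilized array, 2597. Cpeb1 was 1.75-fold lower in parthenogenetic than in fertilized embryos, -0.80 (SE 0.14, adjusted p = 2.37e-05). In SCNT embryos its difference was -0.43 (SE 0.15, adjusted p = 0.0806), and leaving out SCNT 2-cell replicate 1 or 2, which enter only the shared spread, made it a call at 0.0471 and 0.0481. Among the 7, 1 was called lower in SCNT embryos, where 5.56% of all genes were called either way and 2.69% lower. In parthenogenetic embryos 2 were lower and 1 higher, against 9.52% and 10.9% of all genes.

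The higher one was Ybx2, 0.95 (SE 0.24, adjusted p = 0.00393), and without fertilized 1-cell replicate 1 it was 1.43 (adjusted p = 1.8e-08). With only the arrays compared in the fit it had an adjusted p of 0.0897. Nobox was 0.68 (SE 0.28, adjusted p = 0.08), and 1.14 (adjusted p = 0.000307) without the same replicate and 0.68 (adjusted p = 0.0497) without fertilized 2-cell replicate 3. In SCNT embryos Ybx2 was 0.65 (SE 0.26, adjusted p = 0.163), and 1.14 (adjusted p = 3.07e-05) without fertilized 1-cell replicate 1. That array was at 1860.1 for Ybx2 and 1941 for Nobox. The Nobox difference was also called with the deposited values (adjusted p = 0.0376), median centring (0.0124), the constant at percentile 40 (0.0489) and array weights (0.00148). SCNT and parthenogenetic 1-cell embryos had no called difference among the 7 by limma, where 14.2% of all genes were called. Normalized arrays of these groups did not overlap for 2 genes higher (Figla and Cpeb1) and 2 lower (Nobox and Ybx2) in SCNT embryos. Of all genes, 16.9% had such separate arrays higher and 15.9% lower. Of the 7, 2 had an unadjusted limma p under 0.05 (Figla and Cpeb1), and the share of all genes at that threshold was not counted. Figla was 1.07 (SE 0.44, adjusted p = 0.102), and 1.07 (adjusted p = 0.0369) without SCNT 1-cell α-amanitin replicate 4, which enters only the shared spread. The poly(A) spike-in controls were at a mean log2 level of 3.54 in SCNT 1-cell embryos, 5.47 in fertilized and 6.82 in parthenogenetic 1-cell embryos, and their part in these differences was not tested.

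Of the 7 genes, 6 were higher at the 2-cell stage in parthenogenetic than in fertilized embryos, where 26.4% of all genes were. The difference was 2.93 (SE 0.28) for Nobox, 2.03 (SE 0.14) for Dazl, 1.96 (SE 0.24) for Ybx2, 1.46 (SE 0.088) for Lhx8, 1.03 (SE 0.14) for Zar1 and 0.78 (SE 0.14) for Cpeb1. Zar1 and Cpeb1 were thus lower than in fertilized embryos at the 1-cell stage and higher at the 2-cell stage. Figla was -0.89 (SE 0.40, adjusted p = 0.0689). It became a call without parthenogenetic 2-cell replicate 1 (-1.13, adjusted p = 0.0295) or 3 (-1.18, adjusted p = 0.0204), or without SCNT 1-cell α-amanitin replicate 4 (adjusted p = 0.0242). SCNT embryos were lower than parthenogenetic ones for the same 6 genes, with differences from -2.03 for Zar1 to -0.75 for Dazl, where 30.1% of all genes were lower. These comparisons share the parthenogenetic arrays.

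Against fertilized 2-cell embryos, SCNT embryos had more Nobox and Dazl and less Zar1. Nobox was higher by 1.69 (SE 0.28, adjusted p = 6.78e-06), or by 1.12 to 2.07 with the constant at percentile 40 or 5, and every SCNT array (57.0 to 76.6) was above every fertilized array (6.9 to 30.2). Dazl was 2.42-fold higher, 1.28 (SE 0.14, adjusted p = 3.19e-09), and Zar1 2.00-fold lower, -0.998 (SE 0.14, adjusted p = 1.49e-07). By the other Dazl probe set the difference was smaller, 0.74 (SE 0.17, adjusted p = 0.000734). The arrays of the 2 origins did not overlap for Dazl or Zar1 either. In all, 2 of 7 were higher and 3 lower, against 14.3% and 16.3% of all genes. The other lower calls, Lhx8 and Cpeb1, had overlapping arrays. Lhx8 was -0.29 (SE 0.088, adjusted p = 0.00899), and -0.21 (adjusted p = 0.0756) without SCNT 2-cell replicate 3. Cpeb1 was -0.39 (SE 0.14, adjusted p = 0.0246), and it was lost without fertilized 2-cell replicate 3 or 4 (adjusted p = 0.0555 and 0.0743) or SCNT 2-cell replicate 2 or 4 (-0.24, adjusted p = 0.191, and 0.0592). With the deposited values not normalized further, Lhx8 was -0.15 (adjusted p = 0.253) and Cpeb1 -0.22 (adjusted p = 0.233).

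α-Amanitin made no called difference (limma) to any of the 7 genes at the 1-cell stage. In fertilized embryos 6.03% of all genes were called, and in SCNT embryos 0.429%. At an unadjusted limma p under 0.05, 1 of the 7 differed in fertilized (Dazl) and 1 in SCNT embryos (Ybx2). The shares of all genes at that threshold were not counted. Dazl was 0.45 (SE 0.14, adjusted p = 0.0548). It was called at 0.63 (adjusted p = 0.00214) without fertilized 1-cell replicate 1 and without fertilized 2-cell replicate 1, 2 or 3 (adjusted p = 0.0487, 0.0418 and 0.0276). Ybx2 was 0.17 (SE 0.24, adjusted p = 0.772) in fertilized embryos, and 0.66 (adjusted p = 0.00858) without that replicate. In SCNT embryos Ybx2 was -0.68 (SE 0.26, adjusted p = 0.379), and the same difference was called without fertilized 1-cell replicate 1 (adjusted p = 0.0402), which enters only the shared spread. Without that replicate the effect of α-amanitin on Ybx2 differed between SCNT and fertilized embryos by -1.34 (adjusted p = 0.000465), against -0.85 (SE 0.36, adjusted p = 0.224) with it, and that on Dazl by -0.68 (adjusted p = 0.0333), against -0.50 (SE 0.21, adjusted p = 0.231). None of the 7 was called in this difference of effects with all arrays, where 2.41% of all genes were. An unadjusted limma p under 0.05 was found for 3 of the 7 (Zar1, Dazl and Ybx2). How many of all genes had such an unadjusted p was not counted, and the 2.41% is at the adjusted threshold.

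In 2-cell embryos 6 of the 7 genes were higher with α-amanitin than without in both fertilized and SCNT embryos. Higher calls made up 38.6% and 39.6% of all genes. In fertilized embryos Nobox was higher by 4.81 (SE 0.28). The untreated arrays were all below the median of all probe sets, and with the constant at percentile 40 or 5 this was 3.96 or 5.31. Dazl was 17.4-fold higher, 4.12 (SE 0.14), and by its other probe set the difference was 2.95 (SE 0.17, adjusted p = 2.46e-18). Ybx2 was 8.61-fold higher, 3.11 (SE 0.24), and Lhx8 7.23-fold, 2.86 (SE 0.088). Zar1 and Cpeb1 had the smaller differences, 1.98 (SE 0.14) and 1.75 (SE 0.14). In SCNT embryos the differences were 2.95 (SE 0.24) for Ybx2, 2.85 (SE 0.088) for Lhx8, 2.69 (SE 0.14) for Dazl, 2.69 (SE 0.14) for Cpeb1, 2.43 (SE 0.28) for Nobox and 1.79 (SE 0.14) for Zar1. The largest adjusted p of these 12 was 4.38e-10. No array with α-amanitin overlapped an untreated array in any of the 12, where such separate, higher arrays were found for 35.5% of all genes in fertilized and 34.1% in SCNT embryos. The median difference of the 7 was 2.86 in fertilized and 2.69 in SCNT embryos, against 0.27 and 0.28 over all genes.

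The effect of α-amanitin at the 2-cell stage differed between SCNT and fertilized embryos for 3 of the 7 genes. It was smaller in SCNT for Nobox, by -2.37 (SE 0.40, adjusted p = 4.87e-06), and for Dazl, by -1.43 (SE 0.20, adjusted p = 2.45e-07), and larger for Cpeb1, by 0.94 (SE 0.19, adjusted p = 0.000116). With the other Dazl probe set the difference was -0.40 (SE 0.24, adjusted p = 0.211) and not called. Lower calls made up 21.1% and higher calls 17.8% of all genes. For Lhx8 it was -0.004, with a 95% confidence interval of -0.26 to 0.25. The decline between the stages was smaller with α-amanitin than without for 6 of 7 genes in each origin, where 31.9% and 32.4% of all genes were called that way. In fertilized embryos this ran from 1.66 for Cpeb1 to 4.74 for Nobox, and in SCNT embryos from 2.02 for Zar1 to 3.63 for Ybx2. Of the decline with α-amanitin itself, 4 genes were called lower in each origin, against 19.0% of all genes in fertilized and 29.8% in SCNT embryos. The comparison of these declines between origins called 1 higher (Cpeb1) and 1 lower (Nobox), against 14.9% and 20.5% of all genes.

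Among embryos with α-amanitin, Zar1 was again lower in SCNT than in fertilized embryos, -1.53 (SE 0.14, adjusted p = 3.9e-11) at the 1-cell and -1.18 (SE 0.14, adjusted p = 1.28e-09) at the 2-cell stage. Cpeb1 was lower at the 1-cell stage, -0.50 (SE 0.14, adjusted p = 0.00629), and higher at the 2-cell stage, 0.55 (SE 0.14, adjusted p = 0.00101). With median centring of the arrays the latter was 0.29 (adjusted p = 0.139). In the same 2-cell comparison Lhx8 was -0.30 (SE 0.088, adjusted p = 0.00545) and Nobox -0.69 (SE 0.28, adjusted p = 0.0439). The Nobox call was lost in 9 of the refits under other settings or with arrays left out. Among them were those without any 1 of 5 arrays, replicates 1, 3 and 4 of the fertilized and 1 and 4 of the SCNT 2-cell α-amanitin groups. Their adjusted p values were 0.0534, 0.137, 0.115, 0.0593 and 0.174. In all, 2 of 7 genes were lower and 0 higher at the 1-cell stage, against 11.4% and 10.1% of all genes by limma, and 0 were higher at an unadjusted p under 0.05. Dazl was -0.25 (SE 0.14, adjusted p = 0.239) there, and by its other probe set it was called lower, -0.64 (SE 0.17, adjusted p = 0.00564). At the 2-cell stage 3 were lower and 1 higher, against 24.6% and 18.6%.

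Of the genes that oocytes need Figla, Nobox or Lhx8 to express, 17 of 19 listed were tested. In fertilized embryos 15 of 17 fell between the stages, with a median of -2.30. In SCNT embryos 17 of 17 fell (median -2.23) and in parthenogenetic embryos 10 fell and 1 rose (median -0.98). Of all genes tested, 34.2%, 34.4% and 27.4% fell and 25.8%, 26.3% and 21.7% rose in these comparisons, with medians of -0.13, -0.14 and -0.04. The largest declines in fertilized embryos were those of Oas1e (-5.69), Mos (-3.91), the kinase that holds the egg in meiosis, Nlrp4a (-3.77) and H1f8 (-3.71), the linker histone of the oocyte. Zp3, a zona pellucida protein, was at -0.23 and Oosp1 at -0.10, neither called. With α-amanitin 11 of the 17 fell and 2 rose in fertilized embryos, with a median of -0.67, against 19.0% and 21.5% of all genes and a median of 0.11. They were led by Padi6 (-2.05), Mos (-1.70), Oas1e (-1.70) and Zp3 (-1.68). In 2-cell embryos 15 were higher with α-amanitin in fertilized embryos and 17 in SCNT embryos, where 38.6% and 39.6% of all genes were. The list was drawn up with earlier results of these data known and shares genes with the oocyte markers.

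The partners of Cpeb1 in cytoplasmic polyadenylation and translational control moved in both directions. In fertilized embryos 13 of 23 fell and 5 rose between the stages (median -0.66), where 34.2% of all genes fell and 25.8% rose. Those that fell the most were Pabpc1l (-2.96), the poly(A)-binding protein of the oocyte, Lsm14b (-1.85), Cpeb3 (-1.79), a relative of Cpeb1, and Btg4 (-1.77), an adaptor of the deadenylase. Pum2 was at 0.10 and Ddx6 at 0.03, not called. With α-amanitin 9 fell and 9 rose, where 19.0% of all genes fell and 21.5% rose. The largest falls were then those of Tacc3 (-3.59), Cpsf3 (-2.52), Aurka (-1.94), a kinase known to act on Cpeb1, and Patl2 (-1.63). Pabpc1l was at -0.34 and Eif4enif1 at -0.28 with α-amanitin, not called. In SCNT embryos 10 fell and 6 rose, against 34.4% and 26.3% of all genes, and in parthenogenetic embryos 11 fell and 2 rose, against 27.4% and 21.7%.

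Of 19 other germ cell and storage RNA-binding proteins, 14 fell and 2 rose in fertilized embryos (median -0.60), 13 fell and 4 rose in SCNT embryos (median -0.76), and 12 fell and 1 rose in parthenogenetic embryos (median -0.48). Over all genes 34.2%, 34.4% and 27.4% fell and 25.8%, 26.3% and 21.7% rose, with medians of -0.13, -0.14 and -0.04. The largest declines were those of Tdrd1 (-3.72) and Tdrd7 (-2.68), Tudor proteins of germ granules, Stau2 (-2.15), which binds double-stranded RNA, and Samd4 (-1.66). Nanos1 was at 0.06 and Boll at 0.09, not called. With α-amanitin 6 fell and 7 rose in fertilized embryos, against 19.0% and 21.5% of all genes. Celf1 (-2.09), Tdrd7 (-1.70) and Stau1 (-0.86) fell and Boll (0.86) rose, while Elavl2 (0.20) and Stau2 (-0.19) were not called. The rise of Ybx2 with α-amanitin, 1.21, was larger than that of its relative Ybx3, 0.48, while Ybx1 fell (-0.62). Ybx3 and Ybx1 were picked here after their values were seen, and the differences between the genes were not tested.

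Other oocyte and germ cell transcription factors fell and rose in shares nearer to those of all genes. In fertilized embryos 7 of 17 fell and 3 rose (median -0.30), 8 fell and 2 rose in SCNT embryos, and 5 fell and 5 rose in parthenogenetic embryos. Of all genes 34.2%, 34.4% and 27.4% fell and 25.8%, 26.3% and 21.7% rose. Obox2 (-3.24), an oocyte homeobox gene, Sohlh2 (-2.31) and Gtf2a1l (-2.07) fell, and Taf4b (2.26), a germ cell subunit of the general transcription machinery, rose. Tcf12 (-0.18) and Tcf3 (0.01), the latter the partner of Figla, were not called. With α-amanitin 3 fell and 6 rose in fertilized embryos, against 19.0% and 21.5% of all genes, led by Gtf2a1l (-2.76), Sall4 (-2.23), Taf4b (1.15) and Obox2 (-0.91), while Obox5 (0.21) and Foxo3 (0.30) were not called. Of 5 mRNAs known to be bound by Dazl, Sycp1 (1.46), Tex19.1 (0.68) and Tpx2 (0.60) rose in fertilized embryos. Sycp3 (-0.66) and Ddx4 (-0.49) fell, where 25.8% of all genes rose and 34.2% fell. Dazl itself fell by 4.04 on the log2 scale there, and a link between these changes was not tested. With α-amanitin Tpx2 fell (-1.65), where 19.0% of all genes fell and 21.5% rose. Tex19.1 (-0.05) and Sycp3 (0.00) were among the 4 not called.

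The genes whose 10 group means were most like those of each member were found by Pearson correlation over all genes tested, as a description over groups that share arrays with the member. For Nobox they were Fbxl2 (0.99), Arhgap17 (0.99), Ikbkb (0.99), for Lhx8 Pnmal1 (0.99), Ift22 (0.99), Rusf1 (0.99), and for Dazl Psmf1 (0.99), Klhl13 (0.99), Gopc (0.99). For Zar1 they were Gja4 (0.99), Nat14 (0.98), Slc35f6 (0.98), for Ybx2 Mospd1 (0.98), Scel (0.98), Slamf1 (0.98), and for Cpeb1 Stra6l (0.99), Fbxo3 (0.99), Fbxw27 (0.99). High values are common, since 2.83% (Ybx2) to 8.9% (Lhx8) of all genes had a correlation over 0.9 with one of these 6. For Figla, whose means move little, they were Ndufc2 (0.94), Trmt2a (0.92), Tubgcp5 (0.91). Among the members themselves the correlation was 0.97 for Nobox and Dazl and 0.96 for Nobox and Lhx8, and 0.47 for Zar1 and Ybx2, the lowest among the 6 without Figla.

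Other measures moved with the stage. The 10 oocyte markers summed to intensities of 29599.9 to 45430.2 on 1-cell arrays, 11662 to 13151 on fertilized, 8670.4 to 10566 on SCNT and 19289 to 22663 on parthenogenetic 2-cell arrays, and 26030.3 to 30335 on 2-cell arrays with α-amanitin. Of them 8 fell in fertilized, 10 in SCNT and 6 in parthenogenetic embryos, where 34.2%, 34.4% and 27.4% of all genes fell. The 18S control probe sets went from 13.17 to 10.25 in fertilized, 13.25 to 10.81 in SCNT and 12.98 to 11.22 in parthenogenetic embryos, and were at 12.79 and 13.15 in 2-cell embryos with α-amanitin. The poly(A) spike-in controls went from 5.47 to 6.64 in fertilized, 3.54 to 7.38 in SCNT and 6.82 to 6.67 in parthenogenetic embryos. With α-amanitin they went from 6.34 to 6.499 in fertilized and from 3.65 to 8.88 in SCNT embryos. The part of these controls in the results was not tested. The 13 measured markers of cumulus and granulosa cells summed to 436.8 to 878.6 on 1-cell arrays, 792.5 to 1026 on 2-cell arrays with α-amanitin and 1294 to 4084 on untreated 2-cell arrays. The last came mostly from Amhr2, at a group mean of up to 2689 in SCNT 2-cell embryos, while Foxl2 was at 104.3 to 235 over the groups and Cyp11a1, Col1a2 and Inha reached 173.8, 132.4 and 103.3. Vim and Ptx3 reached 35 and 21.95. By group, 5 to 10 of the 13 had a mean above the median of all probe sets. In sperm markers the sum was at most 644.7 and in blood markers at most 92, and no marker had a group mean of 0.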

How the data were processed

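Poly(A) RNA of mouse embryos was measured on 1-colour Affymetrix arrays, 39 with values of 40. The deposited values are linear intensities, 1 per probe set; the mean without the lowest and highest 2% was 149.9 to 150 on every array, a global scaling by the authors. The software that made them is not given in the sources used here. Per the labels' protocols, RNA was isolated with the PicoPure kit. The letter A in sample codes was taken to mean α-amanitin, which the labels spell out for most SCNT samples, while for fertilized samples it rests on the code and the design text.

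Array medians of log2 intensity ranged over 0.82, so arrays were quantile normalized after 6.9 (percentile 20 of the values) was added and log2 taken. Log2 values and differences were computed here from the deposited intensities, and such differences understate changes of dim genes. Of 45101 probe sets, 64 were controls, 34945 were listed with 1 gene, and 31153 were above the median of all values (5.34 on the log2 scale) on at least 4 arrays. With 1 probe set per gene, that of the highest mean, 14916 genes were tested. Models over all arrays (limma 3.58.1 in R 4.3.3, lmFit and eBayes with a trend, 29 residual degrees of freedom) gave 17 comparisons of 2 groups and 8 differences of differences, 2-sided, with Benjamini-Hochberg adjustment over all genes of each at 0.05. The number of arrays limits the precision. The scripts were tested on simulated data.

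The 7 genes and all gene lists were chosen with earlier results of these data known. Besides the 7, up to 4 called genes of each list were named by the size of the difference and up to 2 not called by their mean level, and for each of the 7 the 3 genes most like it. Alternatives were other filters, scalings, added constants, probe sets, variance models, array weights and samples in the fit, a replicate block, and leaving out each array. Replicate numbers were not treated as pairs in the main models. Same-numbered arrays of different groups had mean residual correlations of -0.035 to 0.088 over 45 pairs of groups, and 1 of 171 array pairs was over 0.1. No large shared effect over all genes was thus seen, but this cannot show whether same-numbered samples were collected together. Loci are RefSeq gene spans on GRCm38.p6.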

Additional observations from a re-analysis of the deposited data

Results flagged for a closer look

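In 4 of 63 sets of 4 arrays, 1 array lay far from the other 3, where chance gives about 1 in 20. Figla was at a log2 level of 3.67 on SCNT 1-cell α-amanitin replicate 4, with the others at 6.04 to 6.11, and at 4.92 on fertilized 2-cell replicate 3, with the others at 5.23 to 5.26. Zar1 was at 7.11 on SCNT 2-cell replicate 1, above the others at 6.84 to 6.87. Cpeb1 was at 9.60 on SCNT 1-cell α-amanitin replicate 2, below the others at 9.87 to 9.91. Fertilized 1-cell replicate 1, left out for several results after seeing the data, was not flagged by this rule for Nobox or Ybx2.

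The effect of stage or of α-amanitin differed between groups in 30 called differences of differences (limma, log2 scale), which covered 6 of the 7 genes. Of all genes tested, the share called either way ran from 2.41% to 58.5% over the 8 differences of differences. The share of all genes called in at least 1 of them was not counted. The change between stages in parthenogenetic less that in fertilized embryos was 2.24 for Nobox, 1.32 for Lhx8, 2.00 for Dazl, 2.40 for Zar1, 1.02 for Ybx2 and 1.59 for Cpeb1. In SCNT less fertilized embryos it was 1.44 for Nobox and 1.03 for Dazl. In SCNT less parthenogenetic embryos it was -1.66 for Lhx8, -0.97 for Dazl, -2.29 for Zar1, -1.39 for Ybx2 and -1.55 for Cpeb1.

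The change between stages with α-amanitin less that without was, in fertilized embryos, 4.74 for Nobox, 2.82 for Lhx8, 3.67 for Dazl, 1.79 for Zar1, 2.93 for Ybx2 and 1.66 for Cpeb1. In SCNT embryos it was 2.13 for Nobox, 3.02 for Lhx8, 2.74 for Dazl, 2.02 for Zar1, 3.63 for Ybx2 and 2.66 for Cpeb1. With α-amanitin, the change in SCNT less that in fertilized embryos was -1.17 for Nobox and 1.04 for Cpeb1. The effect of α-amanitin at the 2-cell stage in SCNT less that in fertilized embryos was -2.37 for Nobox, -1.43 for Dazl and 0.94 for Cpeb1.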

How the results depend on the processing

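Of 175 log2 differences of the 7 genes, 98 were called. Under 13 alternatives and with each of 39 arrays left out, 88 of them kept direction and call, 10 lost the call under at least 1, and none (0) reversed. Of those not called, 31 gained a call under at least 1 and 26 changed sign while not called. Counts of the 7 called, with the alternative's value after the reported one, were as follows where they moved by more than 1.5 times. A further 47 moved by less, in 8 counts: lower in the stage change with α-amanitin (fertilized 3 to 5 from 4, SCNT 5 from 4), in SCNT less fertilized 2-cell embryos (2 from 3) and with α-amanitin (3 from 2 at the 1-cell stage, 2 to 4 from 3 at the 2-cell stage), in the stage change of SCNT less parthenogenetic (6 from 5) and the 2-cell α-amanitin effect (3 from 2), and higher in the stage change of parthenogenetic less fertilized (5 from 6). For α-amanitin in fertilized 1-cell embryos, higher went from 0 to 1 with a filter on the mean, deposited values, a constant at percentile 40 or array weights, to 4 with median centring, and to 2 without fertilized 1-cell replicate 1 and SCNT 1-cell α-amanitin replicate 4 together (chosen after seeing the data). For SCNT less fertilized 1-cell embryos, array weights gave 1 higher (from 0) and 2 lower (from 1), and leaving out those 2 arrays 1 higher. At the 2-cell stage lower went from 3 to 1 with deposited values and with only the compared arrays. For parthenogenetic less fertilized 1-cell embryos, higher went from 1 to 2 with deposited values, percentile 40, array weights or without the 2 arrays, to 3 with centring and to 0 with only the compared arrays. At the 2-cell stage lower went from 0 to 1 with percentile 5 and without the 2 arrays. For SCNT less parthenogenetic 1-cell embryos, higher went from 0 to 2 with array weights or only the compared arrays and to 1 without the 2 arrays, and lower to 1 with centring and 2 with only the compared arrays. At the 2-cell stage higher went from 1 to 0 with the filter on the mean. That filter took Figla, the 1 called, out of the test, since its mean log2 level of 5.225 was under the median of 5.34. With α-amanitin, SCNT less fertilized had 1 higher (from 0) with only the compared arrays and 4 lower (from 2) with centring at the 1-cell stage, and 0 higher (from 1) with centring at the 2-cell stage. For the stage change in SCNT less fertilized, higher went from 2 to 1 with percentile 40 or only the compared arrays. Lower went from 0 to 1 with the mean of probe sets, without the 2 arrays and with the replicate block, which changed no other call. The same with α-amanitin had 2 higher (from 1) with the mean of probe sets or the other Dazl probe set (chosen after seeing the data). For the α-amanitin effect in SCNT less fertilized, lower went from 2 to 1 at the 2-cell stage with that probe set, and at the 1-cell stage from 0 to 3 with centring and 1 with array weights or without the 2 arrays. The cause of the other moves was not tested.

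With 1 array left out, the counts that moved by more than 1.5 times ranged over 0 to 2 (α-amanitin, fertilized 1-cell, higher), 0 to 1 (α-amanitin, SCNT 1-cell, lower), 0 to 1 higher and 1 to 2 lower (SCNT less fertilized 1-cell), 1 to 2 higher (parthenogenetic less fertilized 1-cell) and 0 to 1 lower (2-cell), 0 to 1 higher (SCNT less parthenogenetic, each stage), 0 to 1 lower (stage change SCNT less fertilized, without and with α-amanitin) and 0 to 2 lower (α-amanitin effect 1-cell).

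Over all genes, calls for α-amanitin in fertilized 1-cell embryos went from 900 to 1699 (deposited), 2869 (centring), 559 (mean of probe sets) and 2051 (array weights). In SCNT they went from 64 to 159 (weights) and 6 (only compared arrays), and for their difference from 359 to 690, 1280, 184, 1054 and, without the 2 arrays, 611. For SCNT less fertilized 1-cell embryos they went from 829 to 1410 (weights) and 442 (only compared arrays), and for SCNT less parthenogenetic from 2117 to 3561 and 3708. The higher share of calls moved most with centring, from 53.1% to 18.5% for the stage change of fertilized embryos with α-amanitin and from 59.4% to 94.6% for α-amanitin at the 1-cell stage. Centring moved the median of all genes in these from 0.11 to -0.15 and from -0.002 to 0.18, and deposited values to 0.32 and -0.135. Figla is limited by its low signal.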
